A study of Saccharomyces cerevisiae with 137 samples.

Results

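The genes of 9 yeast cell wall proteins were followed through a cold shock and the recovery from it: CWP1 (YKL096W), CWP2 (YKL096W-A), SED1 (YDR077W), CCW12 (YLR110C), TOS6 (YNL300W), PIR1 (YKL164C), PIR3 (YKL163W), HSP150 (YJL159W) and CIS3 (YJL158C). They are 9 of the 6178 open reading frames on the arrays and were taken by name, as proteins bound to the wall by a lipid-derived anchor (GPI) or by internal repeats (PIR). The choice was made with earlier results of these data known. Cultures of Saccharomyces cerevisiae grew at 30 °C, spent 60 min at 13 °C and then 60 min at 30 °C again. Cells were sampled at 13 °C after 15, 30 and 60 min, called t15, t30 and t60, and at 30 and 60 min of the recovery, called t90 and t120. On each array a shifted sample carried one dye and the t0 sample of the same flask, taken before the shift, the other.

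The deletion strains lacked 1 transcription factor gene each, in the BY4741 background, and grew with 200 µg/mL G418: delCIN5, delGLN3, delHAP4, delHMO1, delSWI4 and delZAP1. Wild type (WT) was BY4741, except flask 0, which was BY4739, and had no G418, so deletion and drug cannot be told apart in any comparison with WT. The deletion strains had 25 flasks and WT had 5. WT flasks 0 and 1 were on GCAT slides (9 arrays). The other 128 arrays, among them every deletion array, were on Ontario slides. Arrays numbered 20 for each of delCIN5, delGLN3, delHMO1 and delZAP1, 18 for delHAP4, 16 for delSWI4 and 23 for WT. A group, which is 1 strain at 1 time, had 4 or 5 arrays, except delHAP4 at t90 and t120 with 3 each, and no t15 array of delSWI4 was analysed here.

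The wall of this yeast is a net of glucan and a little chitin covered by mannoproteins. GPI proteins lose part of their anchor and are joined to the outer glucan, while PIR proteins are joined directly to the inner glucan and can be released with mild alkali. Which of these proteins a cell makes changes with the cell cycle, with growth phase and with stress, and the cell wall integrity pathway, a kinase cascade that ends in Slt2, adjusts wall genes when the wall is strained.

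Values are the authors' score, which sets the shifted sample against t0 on a scaled log axis with a like spread on every array. Scaled median absolute deviations of the 137 arrays lay from 0.997 to 1.003, so a score of 1 is the typical deviation of an open reading frame on its array and is not a fold. The direction, shifted over t0, is likely from the sample titles. Tests were made with limma over all open reading frames, with the flask as a random block, and a call means a Benjamini-Hochberg adjusted p below 0.05. An array measured 5041 to 6158 open reading frames, and each of the 9 genes had a value on 133 to 137 of the 137 arrays. The flasks were separate cultures per the labels, but each day held a pair of them from one strain and the pairs are not named, so the day was not in the model.

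Some arrays stood apart. The t15 arrays of delHMO1 flasks 3 and 4 had the same dye orientation and correlated at −0.477 over all open reading frames. Those of flasks 2 and 4, of opposite orientation, correlated at −0.490. With the deposited signs, rank correlations with the own phase in the other strains were above 0 at every time in both flasks. They ran from 0.107 to 0.567 in flask 2 and from 0.050 to 0.348 in flask 4, and would be below 0 with the sign turned. The direction of the delHMO1 flasks is not settled by the pairs, and for delHMO1 a second value follows in which flask 2, or flask 4, has the opposite sign. Against the mean of the other strains, 5 arrays ranked the open reading frames unlike their own phase and like the other one. In delGLN3 t60 flask 2 the rank correlation was −0.311 with the cold and 0.306 with recovery. The other values, own phase first, were −0.168 and 0.625 in delHAP4 t90 flask 4, −0.051 and 0.111 in delHMO1 t60 flask 3, −0.231 and 0.492 in delHMO1 t90 flask 3, and −0.024 and 0.007 in delGLN3 t120 flask 1. Calls of the genes described below that were gained or lost without the first 4 of these arrays are given beside the results. These arrays were picked for being unlike their phase in the other strains. Leaving them out therefore moves a strain towards the common course by construction, and calls gained that way are no separate support for it. Fewer transcripts per cell and fewer cells of one kind, such as one cell cycle stage, cannot be told apart in these bulk cultures.

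**Figure D1:**
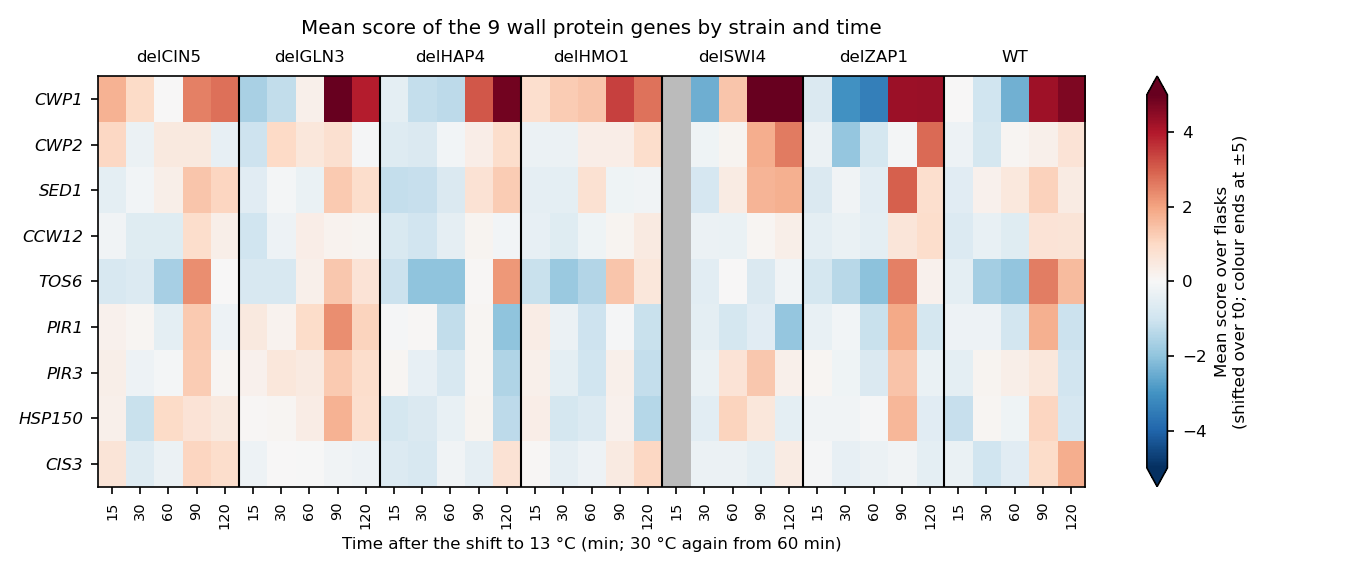
Mean score over the flasks of each strain at each time for the 9 genes, deletion strains left and WT right, with time in minutes after the shift to 13 °C along each block; red is higher and blue lower than t0, and the grey block is delSWI4 at t15, which was not analysed here. CWP1 is red at t90 and t120 in all 7 strains, with means from 2.53 to 8.46 (colours end at 5 either side of 0), and TOS6 is blue at t30 in all 7, with means from −2.02 to −0.52.

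Over the strains, TOS6 was called lower at each of the 3 times in the cold and higher at t90, CWP1 was called lower at t30 and higher at t90 and t120, and PIR1, PIR3 and HSP150 were called higher at t90 but not higher at t120. CWP2 was not called lower in the cold (−0.48 at t30, adjusted p = 0.12), and CCW12 was not called higher than t0 in recovery (0.39 at t90, adjusted p = 0.21). At t60, 4 of 7 strain means were above 0 for CWP1, 5 for CWP2 and 4 for SED1. In the unweighted mean of strains against t0, 3 of the 9 genes were lower at t15 and none higher (46.9% of all open reading frames called), 4 were lower at t30 (54.9% called) and 2 were lower at t60 (54.4% called). At t90, 6 were higher and none lower (25.0% called), and at t120, 4 were higher and 1 lower (23.2% called). The median of the 9 estimates was −0.48 at t30 and 0.90 at t90, against −0.02 and 0.01 over all open reading frames. Between recovery (t90 and t120) and cold (t30 and t60), 8 of the 9 were higher and none lower (69.8% called), and the one not called was HSP150, at 0.37 ± 0.24 (SE). At t15, t30 and t60 the share of the 9 called was below the share called over all open reading frames, and at t90 and t120 it was above. The 9 genes were chosen with earlier results of these data known, so these shares describe them and carry no test. Without the 4 arrays that resembled the other phase, 21 gene and time calls against t0 were made in place of 20.

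**Figure D2:**
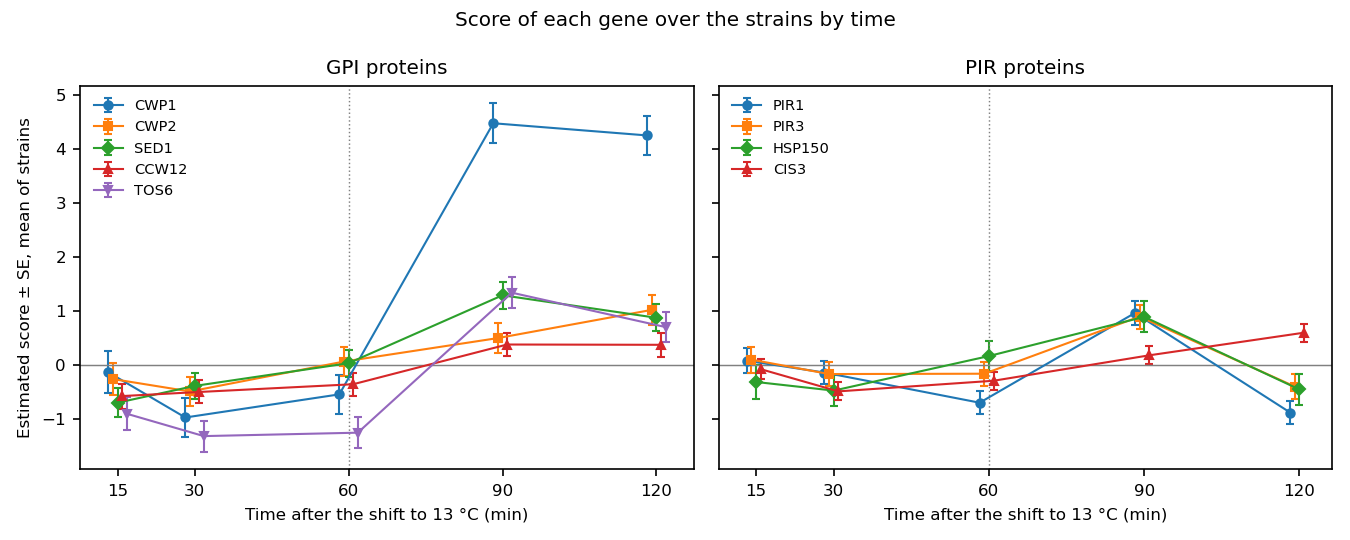
Estimated score of each gene over the strains (6 at t15, 7 later) at each time, with bars of 1 SE, for the 5 GPI genes (left) and the 4 PIR genes (right); the dotted line marks the return to 30 °C and points are spread sideways for clarity. CWP1 stands at 4.48 at t90 and 4.26 at t120, while PIR1, PIR3 and HSP150 lie between 0.90 and 0.97 at t90 and below 0 at t120.

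CWP1, a mannoprotein of the wall that is found at birth scars, had the highest scores of the 9 genes. At t60 the WT flasks read −1.53, −2.36, −2.77 and −2.90 (flasks 0 to 3), all below 0. At t90 flasks 0, 2, 3 and 4 read 2.46, 5.21, 4.54 and 4.76, and at t120 flasks 0 to 4 read 3.30, 6.0, 5.16, 3.42 and 5.54, all above 0 and above every WT flask in the cold. Against t0, CWP1 fell by 2.32 ± 0.48 at t60 (SE, adjusted p = 0.0014) and rose by 4.35 ± 0.48 at t90 (adjusted p = 1.6e-06) and 4.69 ± 0.43 at t120 (adjusted p = 2.4e-07), with no call at t15 (−0.11 ± 0.48) or t30 (−0.99 ± 0.43, adjusted p = 0.12). From cold to recovery the WT score rose by 6.17 ± 0.40 (adjusted p = 1.9e-11), in 5 of 5 flasks.

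In WT as a whole, none of the 9 genes was called at t15 (0 also at an unadjusted p below 0.05 in limma, against 10.8% of open reading frames called). At t30 the count was 1 lower (15.1% called), at t60 it was 2 lower (15.7% called), at t90 it was 3 higher (5.60% called) and at t120 it was 2 higher (2.69% called). From cold to recovery 5 of the 9 rose and none fell (37.5% called). The median of the 9 WT estimates was 1.06 at t90, against 0.01 over all open reading frames.

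Every deletion strain had a CWP1 mean above 0 at t90 and t120, and in most strains the flasks differed more than in WT. At t120 delHAP4 did not, with an SD of 0.253 against 1.25 in WT. In delSWI4 the 4 flasks read 8.91, 8.93, 10.94 and 5.05 at t90 and 5.24, 7.28, 9.46 and 4.58 at t120. The delZAP1 means were the lowest of the strains at t30 and t60, with flasks at −3.40, −2.92, −3.18 and −2.60 at t30 and −4.32, −2.67, −3.48 and −3.26 at t60. Flask 2 of delZAP1 read 0.96 and 0.14 in recovery while the other flasks read 4.56 to 6.44. In delGLN3, flask 1 read −1.08 at t90 and −0.86 at t120 while the others lay between 3.31 and 9.16. The recovery means of the strains, as mean ± SD over flasks, ran from 7.55 ± 2.24 in delSWI4 (n = 4) over 4.61 ± 3.64 in delGLN3 (n = 5), 4.29 ± 2.54 in delZAP1 (n = 4), 3.97 ± 1.36 in delHAP4 (n = 3) and 3.08 ± 2.41 in delHMO1 (n = 4) to 2.65 ± 2.47 in delCIN5 (n = 4), and WT stood at 4.64 ± 1.22 (n = 5). Below delSWI4, each strain differed from the next in that order by less than their SDs.

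Against t0, CWP1 was called in 4 of the deletion strains. In delSWI4 it fell by 2.45 ± 0.77 at t30 (adjusted p = 0.031; 0.16 without flask 1 and 0.17 without flask 2) and rose by 8.46 ± 0.77 at t90 (adjusted p = 4.8e-07) and 6.64 at t120 (adjusted p = 1.5e-05). At t60, still in the cold, CWP1 was above 0 in all 4 delSWI4 flasks (0.12, 2.11, 1.04 and 2.22) but not called. In WT, CWP1 read −2.90 to −1.53 at that time. In delZAP1 it fell by 3.03 ± 0.71 at t30 (adjusted p = 0.0072; 0.059 without flask 3 and 0.071 without flask 4) and 3.43 at t60 (adjusted p = 0.0025), and it rose by 4.27 at t90 (adjusted p = 0.0011; 0.053 without flask 3) and 4.31 at t120 (adjusted p = 0.0012; 0.056 without flask 4). In delHAP4 it rose by 3.09 ± 0.57 at t90 (adjusted p = 0.0088; 0.23 without flask 2 and 0.14 without flask 3) and 4.83 at t120 (adjusted p = 0.00011). That SE pools the times of the strain, and CWP1 had an SD of 2.55 over the delHAP4 flasks at t90. In delGLN3 it rose by 5.34 ± 1.29 at t90 (adjusted p = 0.042), a call lost without flask 2, 3, 4 or 5 (lowest 4.15, without flask 2). Without the 4 arrays that resembled the other phase, CWP1 was also called in delHMO1, higher by 4.66 at t90 (adjusted p = 0.014), and in delHAP4, lower by 1.17 at t30 (score −1.17, adjusted p = 0.014) and by 1.32 at t60 (score −1.32, adjusted p = 0.0068). With all arrays the delHMO1 mean at t90 was 3.43, and it was 0.94 with flask 2 turned and 2.02 with flask 4 turned, neither called. Split by dye, the mean over the 7 strains in recovery was 3.93 where the shifted sample carried Cy5 and 4.91 where it carried Cy3. All splits by dye leave out delGLN3 flask 3, which had arrays of both orientations, and in recovery delHAP4 had 1 flask with Cy3.

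The counts of the 9 genes called against t0 in single deletion strains were small. They were 2 in delGLN3 at t90 (1.45% of open reading frames called). In delHAP4 they were 1 at t30 (17.9%), 1 at t60 (19.0%), 1 at t90 (0.987%) and 2 at t120 (2.97%). In delSWI4 they were 1 at t30 (18.5%), 2 at t90 (14.3%) and 3 at t120 (6.95%), and in delZAP1 1 at t30 (13.9%), 1 at t60 (16.2%), 4 at t90 (4.67%) and 1 at t120 (4.11%). No gene was called in delCIN5 in 45 tests (9 at an unadjusted p below 0.05 in limma; 7.09% called over its 5 times) or in delHMO1 in 45 tests (3 at an unadjusted p below 0.05; 0.0690% called). The 7 remaining strain times gave no call in 63 tests (5 at an unadjusted p below 0.05; 8.73% called).

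CWP2, a major mannoprotein of the wall, is the chromosome XI neighbour of CWP1 in the RefSeq gene table. Its scores were high in recovery in delSWI4, at 1.80, 1.44, 2.54 and 1.54 at t90 and 1.31, 2.29, 3.63 and 3.19 at t120. The WT flasks (0 to 4) read −0.03, 0.60, 0.70, 1.89 and −1.97 at t90 and −0.18, 1.79, 0.72, 1.69 and −0.65 at t120, so the groups overlapped at both times. Against t0 it rose in delSWI4 by 1.83 ± 0.36 at t90 (adjusted p = 0.0017) and 2.61 at t120 (adjusted p = 0.00015), and WT gave no call. The difference between delSWI4 and WT in recovery was 1.76 ± 0.50 (adjusted p = 0.072). In the mean of strains CWP2 rose by 1.03 ± 0.28 at t120 (adjusted p = 0.0037) and by 0.97 ± 0.23 from cold to recovery (adjusted p = 0.00014).

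SED1 encodes a GPI glycoprotein that is abundant in the walls of stressed and stationary cells. In delZAP1 at t90 its flasks read −0.28, 4.05, 4.91 and 3.28, against 1.89, 0.68, 2.76, 0.57 and −0.13 in the WT flasks at that time, and the groups overlapped. Its rise against t0 in delZAP1, 2.99 ± 0.61 (adjusted p = 0.0056), was lost without flask 3, 4 or 5 (lowest 2.35, without flask 4). Over the strains SED1 fell by 0.69 ± 0.27 at t15 (adjusted p = 0.026; 0.088 without delHAP4 flask 4, 0.071 without delCIN5 flask 1 and 0.051 or 0.074 with delHMO1 flask 2 or 4 turned) and rose by 1.30 ± 0.25 at t90 (adjusted p = 1.6e-05) and 0.88 ± 0.25 at t120 (adjusted p = 0.0051). From cold to recovery it rose by 1.26 ± 0.21 (adjusted p = 8.3e-08).

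CCW12 encodes a small, heavily glycosylated mannoprotein that is needed for a firm wall. Its strain means ran from −0.97 to −0.24 at t30, all 7 below 0, and from 0.11 to 0.90 at t90, all 7 above 0. In WT it rose from cold to recovery by 1.21 ± 0.32 (adjusted p = 0.004; 0.75 with adjusted p = 0.089 without flask 3). Over the strains that rise was 0.80 ± 0.18 (adjusted p = 5.9e-05). The falls against t0 of 0.57 ± 0.23 at t15 (adjusted p = 0.036) and 0.49 ± 0.21 at t30 (adjusted p = 0.042) were lost when any of 10 or 13 of the 30 flasks was left out.

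TOS6 encodes a GPI-bound wall protein and was named as a target of SBF, the G1 transcription factor in which Swi4 is the DNA-binding subunit. In the cold it was low on nearly every array of the series, with 23 of 24 below 0 at t15, 25 of 27 at t30 and 25 of 28 at t60. The arrays above 0 at t60 were delGLN3 flask 2 at 4.02, delHMO1 flask 3 at 1.76 and delSWI4 flask 3 at 0.79, of which the first pair are among the arrays that ranked like recovery. The WT flasks read −2.08, −2.36, −1.73 and −1.71 at t60 (flasks 0 to 3), then 1.34, 1.31, 3.06, 3.22 and 3.89 at t90 and 0.67, 2.79, 2.14, 1.82 and 0.43 at t120 (flasks 0 to 4). Every WT flask was above 0 in recovery and below 0 in the cold.

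In WT, TOS6 fell by 1.72 ± 0.50 at t30 (adjusted p = 0.019) and 1.91 ± 0.50 at t60 (adjusted p = 0.009), and it rose by 2.56 ± 0.45 at t90 (adjusted p = 0.00089). The t30 call rested on flask 0, at −4.40: without it the value was −0.86 (adjusted p = 0.26), and it was also lost without flask 3 (adjusted p = 0.077). The t60 call was lost without flask 2 (−1.94, adjusted p = 0.052). At t120 the score was 1.57 (adjusted p = 0.056), and from cold to recovery it rose by 3.88 ± 0.41 (adjusted p = 9.8e-08).

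Over the strains TOS6 fell by 0.90 ± 0.30 at t15 (adjusted p = 0.011), 1.31 ± 0.29 at t30 (adjusted p = 5.8e-05) and 1.25 ± 0.28 at t60 (adjusted p = 9.6e-05) and rose by 1.34 ± 0.29 at t90 (adjusted p = 0.00013). Its rise from cold to recovery was 2.31 ± 0.24 (adjusted p = 4.6e-15), and 2.64 without the 4 arrays that resembled the other phase. In delHAP4 it read −0.93, −2.69, −1.91 and −2.57 at t30 and −1.49, −2.36, −1.71 and −2.51 at t60, and it fell by 2.02 at both times (adjusted p = 0.0036 and 0.0046). At t120 it rose by 2.27 in delHAP4 (adjusted p = 0.017; 0.12 without flask 2 and 0.078 without flask 3). Without the 4 arrays TOS6 was also called in delHMO1, lower at t30 (−1.86, adjusted p = 0.015) and by 2.59 at t60 (adjusted p = 0.0026) and higher by 2.73 at t90 (adjusted p = 0.007), where the 4 flasks had read −2.20, −3.06, 1.76 and −2.29 at t60 and 4.61, 1.56, −2.94 and 2.26 at t90. With all arrays and the sign of flask 2 turned the delHMO1 values at t30, t60 and t90 were −0.83, 0.09 and 0.59, and with flask 4 turned −1.10, −0.30 and 0.24, none of them called. Without the 4 arrays TOS6 was also called lower in delHAP4 at t15 (−1.09, adjusted p = 0.025) and higher over the strains at t120 (0.72, adjusted p = 0.018).

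The PIR genes encode wall proteins with internal repeats that were found as a family. PIR1 and PIR3 are neighbours on chromosome XI, and HSP150 (also PIR2), whose product is also secreted and induced by heat, and CIS3 (also PIR4) are neighbours on chromosome X. Probe sequences were not used here, and hybridisation of one family member to the probe of another was not tested. In WT, PIR1 read 2.02, 0.72, 2.20, 1.42 and 2.51 at t90 (flasks 0 to 4) and −0.18, −1.22, −1.98, −0.02 and −2.06 at t120. All 5 flasks were above 0 at t90 and all 5 below 0 at t120, with no overlap.

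PIR1 rose in WT by 1.77 ± 0.36 at t90 (adjusted p = 0.0027), was not called at t120 (−1.09, adjusted p = 0.11), and fell by 2.87 ± 0.44 between t90 and t120 (adjusted p = 0.0011). Its rise from cold to recovery in WT, 0.96 ± 0.32 (adjusted p = 0.02), was lost without flask 0 (0.82, adjusted p = 0.1) or flask 3 (0.75, adjusted p = 0.11). Between t90 and t120, PIR1 was the only one of the 9 genes called in WT (0.939% called, 3 of 9 at an unadjusted p below 0.05). For PIR3 that difference was −1.54 in WT (adjusted p = 0.083) and for HSP150 −1.89 (adjusted p = 0.27), neither of them called. The WT t120 values of PIR3 were −0.88, −1.13, −1.67, −0.95 and −0.19, all below 0. HSP150 read 2.59, −2.22, 1.74, 1.06 and 2.14 at t90, where flask 1 alone was below 0; without it the t90 value was 1.88 and was called (adjusted p = 0.018), against 1.06 with it (adjusted p = 0.32).

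Over the strains 3 of the 9 genes fell between t90 and t120 and none rose (8.80% called), and all 3 were PIR genes; without the 4 arrays that resembled the other phase TOS6 fell too (−0.96, adjusted p = 0.017). PIR1 fell by 1.84 ± 0.26 (adjusted p = 2.1e-08), PIR3 by 1.29 ± 0.27 (adjusted p = 0.00031) and HSP150 by 1.35 ± 0.34 (adjusted p = 0.0048; 0.082 with no flask block), while the difference was 0.42 ± 0.20 for CIS3 (adjusted p = 0.18). Against t0 at t90, PIR1 rose by 0.97 ± 0.21 (adjusted p = 0.00018), PIR3 by 0.90 ± 0.22 (adjusted p = 0.00097) and HSP150 by 0.90 ± 0.29 (adjusted p = 0.012). The HSP150 call was lost without delHAP4 flask 3 (0.68, adjusted p = 0.086) and with delHMO1 flask 2 turned (0.63, adjusted p = 0.076). PIR1 was below t0 at t60, by −0.69 ± 0.21 (adjusted p = 0.0037), and at t120, by −0.87 ± 0.21 (adjusted p = 0.001), so its mean crossed t0 on each side of t90. The rises from cold to recovery were slight, 0.46 ± 0.18 for PIR1 (adjusted p = 0.019; 0.34 with adjusted p = 0.095 without delHAP4 flask 3) and 0.41 ± 0.19 for PIR3 (adjusted p = 0.044; 0.30 with adjusted p = 0.15 without that flask). The PIR3 call was lost in 17 of 41 alternatives, among them 12 of 30 single flasks left out (of WT 2, 3 and 4, delCIN5 2 and 4, delGLN3 2 and 5, delHAP4 3, delHMO1 1 and 2, delSWI4 3 and delZAP1 3) and delHMO1 flask 2 (adjusted p = 0.095) or 4 (adjusted p = 0.065) turned.

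**Figure D3:**
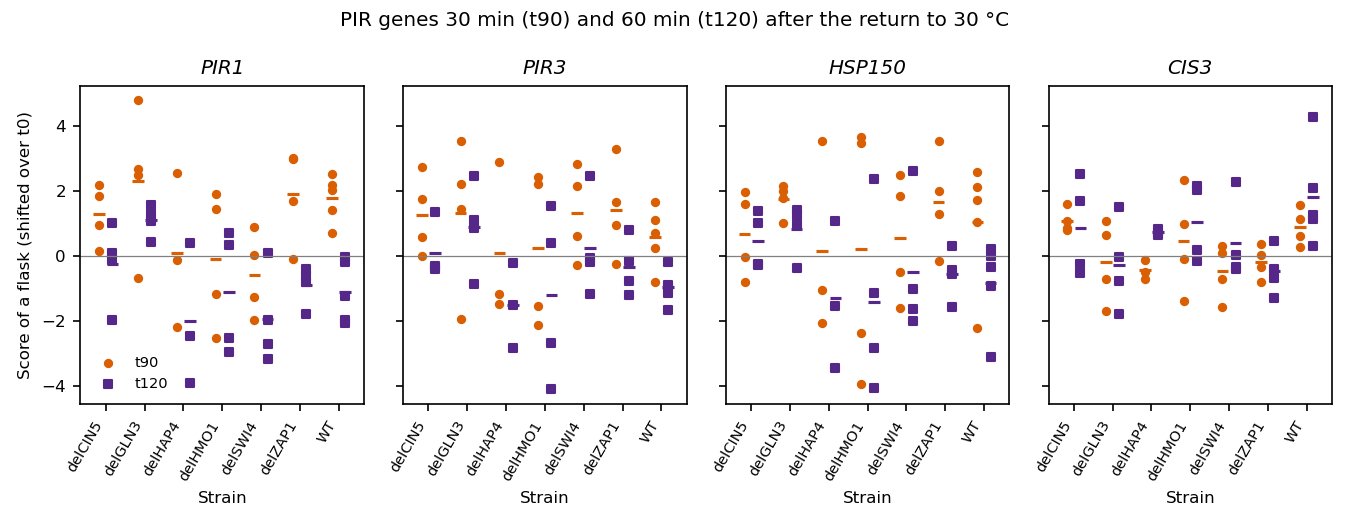
Score of each flask at t90 (circles) and t120 (squares) for the 4 PIR genes, with the strain mean as a short line, deletion strains left and WT right. PIR1 in WT lies above 0 in all 5 flasks at t90 and below 0 in all 5 at t120, whereas CIS3 in WT is higher at t120, with a mean of 1.82, than at t90, with a mean of 0.90.

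The PIR genes differed between flasks of a strain. In delHMO1, HSP150 read 3.48, 3.67, −3.92 and −2.38 at t90 (flasks 1 to 4), and PIR3 read 2.23, 2.44, −2.14 and −1.52. PIR1 read 1.92, 1.46, −2.51 and −1.18 in the same flasks, so flasks 1 and 2 were high and flasks 3 and 4 low for all 3 genes. The shifted sample carried Cy5 in flasks 1 and 2 and Cy3 in flasks 3 and 4, and the part of the dye in this split was not tested. In delHAP4 the split ran the other way by dye: the recovery mean of HSP150 was −2.02 over the 2 flasks with Cy5 and 2.32 in flask 3 with Cy3. Over the 7 strains the recovery means by dye were 0.15 (Cy5) and 0.17 (Cy3) for PIR1, 0.45 (Cy5) and 0.15 (Cy3) for HSP150 and 0.78 (Cy5) and −0.05 (Cy3) for CIS3.

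At t90, delZAP1 gave 4 of its 7 calls. PIR1 read −0.09, 1.69, 2.99 and 3.01 in its flasks 2 to 5 and rose by 1.90 ± 0.41 (adjusted p = 0.0087), and HSP150 read −0.15, 2.00, 3.55 and 1.30 and rose by 1.68 ± 0.47 (adjusted p = 0.041). Flask 2 was the lowest for both genes, as it was for CWP1 and SED1 at that time. Both calls were lost without flask 3, 4 or 5 (PIR1 1.97, 1.54 and 1.53; HSP150 1.57, 1.05 and 1.80). In delGLN3 HSP150 read 1.02, 1.99, 1.79 and 2.17 at t90 (flasks 1, 2, 3 and 5) and rose by 1.73 ± 0.39 (adjusted p = 0.027; lost without flask 2, 3, 4 or 5, at 1.59 to 1.74), and without the 4 arrays PIR1 was called there too (2.28, adjusted p = 0.037). In delSWI4 PIR1 fell by 1.93 ± 0.45 at t120 (adjusted p = 0.012), with flasks at −3.16, −2.70, 0.10 and −1.95. That call was lost without flask 1 (−1.52), flask 2 (−1.67) or flask 4 (−1.92).

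CIS3 had another course than the other PIR genes: it was low at t30 and highest at t120. In WT it read −1.55, −0.35, −1.09 and −1.01 at t30 (flasks 0, 2, 3 and 4), 1.58, 0.28, 0.61 and 1.13 at t90 in the same flasks, and 4.29, 2.09, 1.14, 1.26 and 0.31 at t120 (flasks 0 to 4). All flasks were below 0 at t30 and above 0 at t90 and t120. It rose in WT by 1.82 ± 0.40 at t120 (adjusted p = 0.01; 1.20 with adjusted p = 0.088 without flask 0 and 1.75 with adjusted p = 0.073 without flask 1) and by 2.16 ± 0.38 from cold to recovery (adjusted p = 7.4e-05). Over the strains it fell by 0.48 ± 0.17 at t30 (adjusted p = 0.011), rose by 0.60 ± 0.17 at t120 (adjusted p = 0.0036), and rose by 0.78 ± 0.14 from cold to recovery (adjusted p = 6.6e-07). Flasks whose shifted sample carried Cy5 had the higher CIS3 mean in 6 of 7 strains both in the cold (−0.24 over the strains, against −0.53 with Cy3) and in recovery. All 3 CIS3 calls over the strains held with a term for dye orientation in the fit. CIS3 was also called lower without the 4 arrays in delHAP4 at t30 (−0.79, adjusted p = 0.047).

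**Figure D4:**
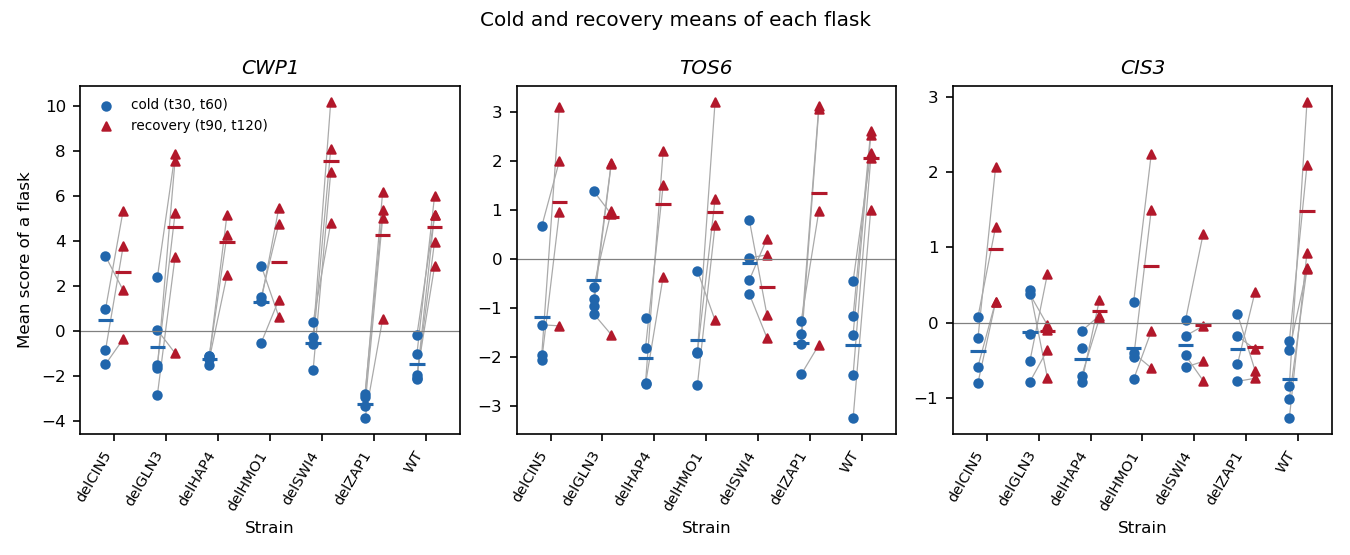
Mean score of each flask over its arrays in the cold (t30 and t60, circles) and in recovery (t90 and t120, triangles) for CWP1, TOS6 and CIS3, with a grey line joining the points of a flask and a short bar at each strain mean, deletion strains left and WT right. The CIS3 recovery means of delGLN3 (−0.74 to 0.65), delHAP4 (0.06 to 0.30) and delZAP1 (−0.74 to 0.41) lie below all 5 WT flasks (0.71 to 2.94), and none of these recovery differences was called.

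Whether a deletion changed the course of a gene was asked by setting each deletion strain against WT. These comparisons share the WT flasks. Scores are relative to t0 of the same flask, and t0 levels were not compared between strains. Here and between deletion strains, a score difference at t15, in the cold or in recovery cannot be told apart from a difference at t0. At t15 no gene was called in 45 tests (0 at an unadjusted p below 0.05 in limma; 0.0164% of open reading frames called over the 5 strains). In the cold none was called in 54 tests (5 at an unadjusted p below 0.05; 0.135% called). In recovery 2 were called in 54 tests (12 at an unadjusted p below 0.05; 0.417% called), both in delSWI4, which had 1.21% called. The change from cold to recovery, a comparison added after the data had been seen, gave 5 calls in 54 tests (19 at an unadjusted p below 0.05; 1.65% called). Over all strains and phases the flask means of 9 of 162 gene comparisons did not overlap between deletion strain and WT, where 3.20% of all open reading frame comparisons did not.

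In delSWI4 TOS6 was without the high recovery scores of WT. Its recovery means were −1.61, 0.08, −1.14 and 0.42 in the delSWI4 flasks (1 to 4), against 1.00, 2.05, 2.60, 2.52 and 2.16 in the WT flasks (0 to 4), and the strains did not overlap (2.71% of open reading frames did not). The change from cold to recovery was −0.89, 0.06, −1.94 and 0.85 in delSWI4, against 4.25, 4.40, 3.77, 4.06 and 2.61 in WT, again without overlap (5.62% did not). In recovery the TOS6 score relative to t0 was lower in delSWI4 by 2.59 ± 0.54 (score −2.59, adjusted p = 0.0053). Its change was lower by 4.14 ± 0.59 (−4.14, adjusted p = 1.8e-05), with 3.91% of open reading frames called for that change. In the cold the TOS6 means were −0.71, 0.02, 0.79 and −0.43 in the delSWI4 flasks, against −3.24 to −0.45 in the WT flasks. The strains overlapped there and the cold difference was not called. The change holds both phases, so its difference is not one of recovery alone. The difference in the change was called under all 18 alternatives that gave a value and ran from −4.62 to −3.73 when single flasks were left out. The difference in recovery was lost without delSWI4 flask 3 (−2.29, adjusted p = 0.052), with t120 alone (−1.75, adjusted p = 0.22), in 1 fit of all arrays (adjusted p = 0.16) and with a term for slide coating (−3.44, adjusted p = 0.61). Slides of delSWI4 flasks 2 to 4 and of delHAP4, 30 in all, were uncoated. Only delSWI4 had slides of both kinds, so the coating term rests on its flask 1 against its flasks 2 to 4. The fit with that term cannot tell coating from a difference between those flasks. The part of the coating in this difference was not tested otherwise. In WT the SWI4 transcript itself was not called at any time, with scores from −0.50 to 0.07, whereas those of CIN5 (1.90), HMO1 (1.71) and ZAP1 (2.60) were higher at t60.

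**Figure D5:**
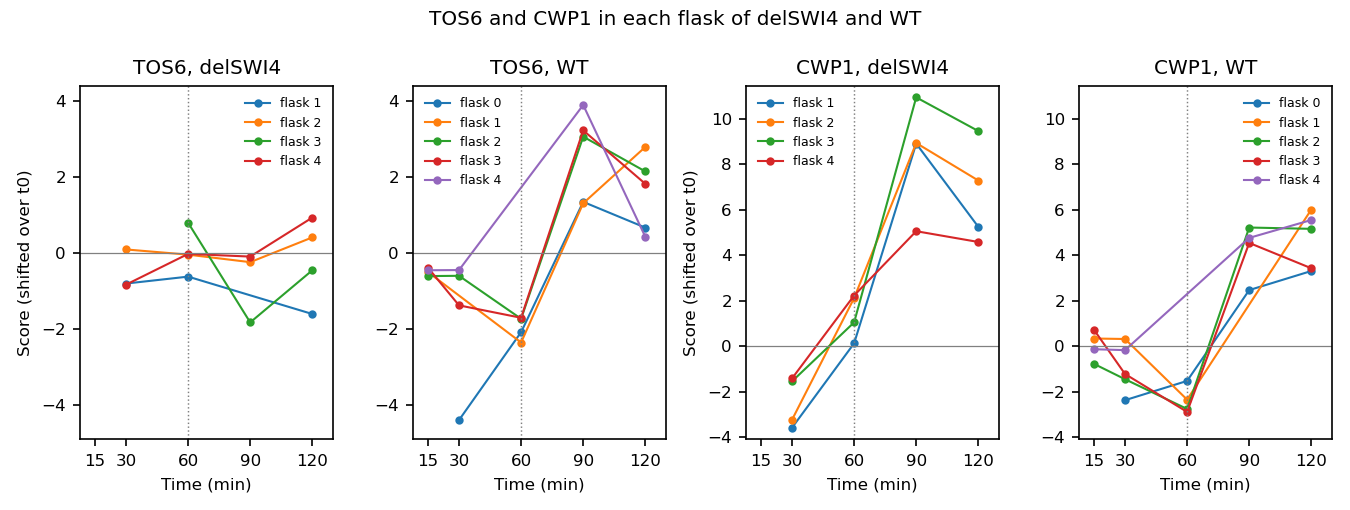
Score of TOS6 (left pair) and CWP1 (right pair) in each flask of delSWI4 and of WT against minutes after the shift to 13 °C, with the dotted line at the return to 30 °C; axes are shared within a gene. TOS6 in delSWI4 stays between −1.83 and 0.93 at every time, while the WT flasks reach 1.31 to 3.89 at t90; CWP1 reaches 5.05 to 10.94 at t90 in delSWI4 and 2.46 to 5.21 in WT.

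The CWP1 score relative to t0 was higher in delSWI4 than in WT in recovery. Its recovery means were 7.07, 8.11, 10.20 and 4.82 in the delSWI4 flasks, against 2.88, 6.0, 5.18, 3.98 and 5.15 in the WT flasks, and delSWI4 flask 4 lay within the WT range. The difference was 3.03 ± 0.72 (adjusted p = 0.018). It was lost without delSWI4 flask 3 (2.14, adjusted p = 0.17) or flask 2 (2.84, adjusted p = 0.11), without WT flask 0 (2.55, adjusted p = 0.088) or flask 3 (2.91, adjusted p = 0.065), with t120 alone (1.96, adjusted p = 0.35), in 1 fit of all arrays (adjusted p = 0.21) and with the coating term (2.19, adjusted p = 1). The recovery difference of PIR1 between delSWI4 and WT was −1.59 and not called (adjusted p = 0.079); without delSWI4 flask 3 the difference was −2.18 and was called (adjusted p = 0.0085).

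Between cold and recovery CWP1 changed less in delHMO1 than in WT. The change was 3.26, 4.15, −2.27 and 1.92 in the delHMO1 flasks (1 to 4), against 4.84, 7.03, 7.30, 6.04 and 5.33 in the WT flasks, with no overlap (4.54% of open reading frames did not). The difference was −4.41 ± 0.84 (adjusted p = 0.003; 1.49% called), and it was −6.48 with flask 2 turned and −5.37 with flask 4 turned, both called, and −4.39 and not called with no flask block (adjusted p = 0.057). It was −3.55 and called without the 4 arrays (adjusted p = 0.0065). In the cold the delHMO1 flask means of CWP1 were 1.52, 1.34, 2.92 and −0.51, against −2.11 to −0.18 in the WT flasks. The recovery difference was −1.45 (adjusted p = 0.61), and −4.19 and called with flask 2 turned (adjusted p = 0.017). The contrast of the change in delCIN5, −4.02 (adjusted p = 0.079), was not called although its flasks (−1.52 to 4.62) did not overlap WT, as was so for 125 of 6173 open reading frames. It was called without flask 1 (−4.76, adjusted p = 0.032) or flask 2 (−4.84, adjusted p = 0.036).

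The mean CIS3 change from cold to recovery was smaller in every deletion strain than in WT. Over flasks it was 2.23 in WT, 1.35 in delCIN5, 1.09 in delHMO1 and 0.69 in delHAP4. It was 0.255 in delSWI4, 0.02 in delZAP1 and 0.01 in delGLN3. The difference from WT was called in 3 of the deletion strains, and no CIS3 difference was called between deletion strains. The WT flasks changed by 3.77, 2.34, 1.07, 2.20 and 1.73. In delZAP1 the flasks changed by 0.04, 0.97, −0.75 and −0.18 with no overlap with WT (3.68% of open reading frames did not), and the difference was −2.15 ± 0.49 (adjusted p = 0.011; 1.67% called). It was lost without delZAP1 flask 4 (−1.89, adjusted p = 0.071) or flask 5 (−2.08, adjusted p = 0.056). In delGLN3 the flasks changed by 0.05, −1.18, 1.17, −0.41 and 0.43, overlapping WT, with a difference of −2.36 ± 0.63 (adjusted p = 0.038; 1.67% called). In delSWI4 they changed by 0.13, 0.08, 1.15 and −0.34, also overlapping, with a difference of −1.91 ± 0.52 (adjusted p = 0.027). These last calls were lost in 10 of 20 alternatives for delGLN3 and 10 of 18 for delSWI4. Leaving out WT flask 0, which has the BY4739 background and GCAT slides, gave −1.91 in delGLN3 (adjusted p = 0.12) and −1.46 in delSWI4 (adjusted p = 0.082). Leaving out WT flask 1, also on GCAT slides, or WT flask 3 ended both calls too. The delGLN3 difference was −2.23 and not called without the 4 arrays (adjusted p = 0.052).

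In recovery the CIS3 flask means of delGLN3, delHAP4 and delZAP1 did not overlap WT, as was so for 125 of 6126, 165 of 6093 and 142 of 6162 open reading frames in these strains. The recovery differences were −1.58 (adjusted p = 0.18) in delGLN3, −1.18 (adjusted p = 0.47) in delHAP4 and −1.71 (adjusted p = 0.085) in delZAP1, none of them called.

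Each deletion strain was also set against the mean of the other 5, which all had G418; these comparisons share strains. In the cold no gene was called in 54 tests (4 at an unadjusted p below 0.05 in limma; 0.0630% of open reading frames called). In recovery 2 were called (8 at an unadjusted p below 0.05; 0.413% called). CWP1 was higher in delSWI4 by 3.85 ± 0.85 (adjusted p = 0.0077; 0.492% called), a call lost without delSWI4 flask 2 (3.66, adjusted p = 0.1) or flask 3 (2.96, adjusted p = 0.23). PIR1 was higher in delGLN3 by 1.92 ± 0.48 (adjusted p = 0.024; 0.703% called), with flask means of 1.89, 2.61, −0.69, 1.09 and 2.12, of which flask 3 alone was below 0. That call was lost without delGLN3 flask 1, 2, 4 or 5 (1.64 to 1.92), without delHAP4 flask 4 (1.71) and with delHMO1 flask 4 turned (1.73).

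The change from cold to recovery, also added after the data had been seen, gave 4 calls in 54 tests between deletion strains (12 at an unadjusted p below 0.05; 1.56% called). In delSWI4, with 2.64% called, the change of CWP1 was 3.77 ± 0.88 higher (adjusted p = 0.0069; 0.06, 0.058 and 0.11 without flask 1, 2 or 3) and that of TOS6 was −2.77 ± 0.73 (adjusted p = 0.021; 0.1, 0.082 and 0.13 without flask 1, 2 or 3; 0.064 and 0.057 with delHMO1 flask 2 or 4 turned). The cold value of CWP1 in delSWI4 joins a mean of −2.45 at t30 and a mean of 1.37 at t60. In delHMO1, with 4.13% called, the change of CWP1 was −3.82 ± 0.88 (adjusted p = 0.0038; −2.47 with adjusted p = 0.23 without flask 3; −5.89 and −4.78 with flask 2 or 4 turned). The change of SED1 was −2.07 ± 0.61 (adjusted p = 0.029; lost without flask 1, 2 or 3 and, at 0.051, without the 4 arrays; −1.73 and −2.49 with flask 2 or 4 turned). The change of CWP1 in delCIN5 was also called without the 4 arrays (−3.67, adjusted p = 0.016).

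An F test over all 7 strains called none of the 9 genes in the cold (1 at an unadjusted p below 0.05 in limma, CWP1 with F = 3.72; 0.601% called). In recovery it called CWP1 (F = 3.99, adjusted p = 0.046) and PIR1 (F = 4.66, adjusted p = 0.022), 2 of 9 where 2.80% of all open reading frames were called. The CWP1 call was lost in 24 of 43 alternatives, among them the fit without the 4 arrays (F = 3.76, adjusted p = 0.061). Leaving out delSWI4 flask 3 gave F = 2.30 for CWP1 (adjusted p = 0.32), and leaving out delGLN3 flask 5 gave F = 3.75 for PIR1 (adjusted p = 0.073).

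Some of the 9 genes had like courses, though many other open reading frames were as close to most of them. Over the 34 strain and time means, PIR3 and HSP150 correlated at 0.823, and each ranked first for the other among 5922 open reading frames. PIR1 correlated with PIR3 at 0.713 (rank 3 for PIR1) and with HSP150 at 0.673 (rank 8 for PIR1). CIS3 correlated with TOS6 at 0.633, where TOS6 had rank 35 for CIS3 and CIS3 rank 470 for TOS6. Among the GPI genes, TOS6 and CCW12 correlated at 0.769, CWP1 and SED1 at 0.736 and CWP1 and CWP2 at 0.702. CCW12 had rank 52 for TOS6, and TOS6 had rank 82 for CCW12. For CWP1, SED1 had rank 338 and CWP2 rank 455, while CWP1 had rank 148 for SED1 and 11 for CWP2. The means share times, strains and flasks, so these values describe the courses and carry no test.

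By the same measure, the open reading frames most like each gene were mostly not wall proteins. The nearest to CWP1 was SPH1 (0.898), to CWP2 YKL136W (0.796), to SED1 ARG2 (0.880), to CCW12 TMH11 (0.863) and to TOS6 ALG14 (0.841). Among the PIR genes the nearest outside the 9 were BUD9 for PIR1 (0.739), VMA6 for PIR3 (0.704), NPL3 for HSP150 (0.702) and RPS0A for CIS3 (0.718).

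Other wall genes were counted in 4 lists, chosen with earlier results of these data known, so the counts carry no test. Of 38 genes that build or remodel the wall, 6 were higher and 3 lower in WT at t60, and 8 rose and 7 fell from cold to recovery (median 0.27, against −0.03 over all open reading frames), where 15.7% and 37.5% of all open reading frames were called. In WT at t60, KNH1, a homologue of a glucan synthesis gene, stood at 3.89 ± 0.76 and GAS2, a glucan-remodelling enzyme gene of sporulation, at 2.93 ± 0.52, while DSE1, a daughter-cell gene, stood at −1.89 ± 0.41. At t90 in WT, 2 of the 38 were higher and 1 lower, where 5.60% of all open reading frames were called. The 2 higher were the transglycosylase genes CRH1 (2.05 ± 0.38) and UTR2 (1.38 ± 0.34), and the lower one was GAS2 (−2.11 ± 0.44). The products of CRH1 and UTR2 join chitin to glucan.

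Of 30 other wall and GPI protein genes, 7 were higher and 1 lower in WT at t90, and 11 rose and 3 fell from cold to recovery (median 0.40), where 5.60% and 37.5% of all open reading frames were called. YGP1, a gene for a secreted glycoprotein of starved cells, stood at 3.13 ± 0.61 at t90 in WT, AGA1, which anchors a-agglutinin, at 1.56 ± 0.30, and the phospholipase B gene PLB2 at −4.04 ± 0.63. Over the strains 10 of 27 tested were higher at t90 and 1 lower (25.0% of all called), with SPI1, a GPI gene related to SED1, at 2.24 ± 0.22.

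Of 31 genes of cell wall integrity signalling, 4 were higher and 1 lower in WT at t90, and 6 rose and 6 fell from cold to recovery (median −0.01), where 5.60% and 37.5% of all open reading frames were called. In WT 2 were higher and 1 lower at t15 (10.8% of all called), 1 higher and 2 lower at t30 (15.1%) and 1 higher and 3 lower at t60 (15.7%). ZEO1, whose product binds the sensor Mid2, stood at −4.20, −4.87 and −4.60 in WT at t15, t30 and t60. PTP2, a phosphatase gene of the pathway, was the 1 higher at t60, at 1.90 ± 0.40. The eisosome genes PIL1 (2.30 ± 0.46) and LSP1 (2.36 ± 0.44) were higher at t90. Of 16 regulators, SKN7 alone was called against t0 in WT, at 1.38 ± 0.44 at t60, where 15.7% of all open reading frames were called.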

How the data were processed

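RNA of shifted cultures was hybridised with t0 RNA of the same flask on 2-colour arrays, 137 in all from 30 flasks of 7 strains. The authors deposited 1 score for each open reading frame and array. The submitters' processing notes name limma, with a version not given in the sources used here, and background correction and normalization steps are likewise not given. The values themselves show a median near 0 and a like spread on every array; the log base and scaling factors are unknown, so scores were compared as scores and not as folds, whereas log2 values had been planned for. Array precision is limited by the number of arrays.

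Per strain, a mean for each time was fitted with limma 3.58.1 (R 4.3.3), with the flask as a random block (duplicateCorrelation) and moderated variances. Comparisons between strains and the mean of strains came from fits of the strains concerned. Cold was the mean of t30 and t60, recovery that of t90 and t120. At least 2 flasks in each group were needed, and p-values were adjusted by Benjamini-Hochberg over all open reading frames tested, with 0.05 as threshold. The p-values against t0 and for strain differences at a time or phase rest on a spread pooled over the times and strains of a fit. Each open reading frame had 1 moderated variance in a fit, and each fit had 1 flask correlation. They therefore do not measure the spread between flasks at a single time. For CWP1 in delHAP4 the flasks had an SD of 0.22 at t30 and 2.55 at t90, while 1 variance served both times. In differences between times, most of what a flask shares over its arrays cancels. Those p-values mainly measure the spread between arrays beyond that shared part. The code was tested on simulated data, and tables were prepared with Python 3.11.15, pandas 2.3.3 and matplotlib 3.10.9.

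The 9 genes and the 4 lists were chosen with earlier results of these data known. The 9 genes are named throughout. From each list, genes could be named that were among the 2 higher and 2 lower calls of smallest adjusted p at a time, in WT or the mean of strains, and for likeness the nearest open reading frames by Pearson's r. Names came from the RefSeq gene table, which matched 5674 of the 6178 open reading frames, and no sequence was used. The flask numbers were checked as pairs: over 23 pairs of a deletion flask and the WT flask of the same number, deviations correlated at −0.186 to 0.262, with 6 above 0.1, so numbers served as names only. Alternatives covered the block, the set of open reading frames, the dye, the slide type and coating, centring, moderation, single flasks, the 4 arrays and the delHMO1 signs.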

Additional observations from a re-analysis of the deposited data

Results flagged for a closer look

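Single flasks stood far from the others of their group in 12 of 280 groups, where chance gives about 5%. At t15 these were delGLN3 flask 4 for CWP2 at −3.05 (others −0.46 to −0.27), delHAP4 flask 4 for SED1 at −3.91 (others −0.55 to −0.08), delHMO1 flask 4 for PIR1 at −1.95 (others 1.00 to 1.22) and for PIR3 at −3.24 (others 1.17 to 1.55), and delZAP1 flask 4 for HSP150 at 1.52 (others −0.95 to −0.55). In the cold they were delSWI4 flask 1 for SED1 at −2.34 at t30 (others −0.44 to −0.22), delZAP1 flask 4 for PIR3 at 1.15 at t30 (others −0.86 to −0.57), delHAP4 flask 1 for CWP1 at −2.05 at t60 (others −1.17 to −1.01), delSWI4 flask 4 for CWP2 at 1.32 at t60 (others −0.38 to −0.14) and delGLN3 flask 2 for TOS6 at 4.02 at t60 (others −1.13 to −0.74). At t120 they were delCIN5 flask 4 for PIR3 at 1.35 (others −0.39 to −0.30) and delSWI4 flask 3 for CIS3 at 2.27 (others −0.39 to 0.03).

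The differences between strains that passed the limma test are listed here, and the share of open reading frames called in each comparison is given above. The change from cold to recovery was added after the data had been seen. Against WT, the recovery scores differed in delSWI4 for CWP1 (3.03) and TOS6 (−2.59), and the change from cold to recovery differed for TOS6 (−4.14) and CIS3 (−1.91) in delSWI4, CIS3 in delGLN3 (−2.36) and delZAP1 (−2.15), and CWP1 in delHMO1 (−4.41). Against the other deletion strains, recovery differed for CWP1 in delSWI4 (3.85) and PIR1 in delGLN3 (1.92), and the change for CWP1 (3.77) and TOS6 (−2.77) in delSWI4 and for CWP1 (−3.82) and SED1 (−2.07) in delHMO1. Over all strains the F values in recovery were 3.99 for CWP1 and 4.66 for PIR1.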

How the results depend on the processing

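No result changed sign while called. Of single gene results under alternatives, 3173 kept their side of the threshold, 127 newly passed it and 238 no longer passed. The counts below are of the 9 genes; where no cause is evident from an alternative's construction, the cause was not tested. The calls of WT against t0, 8, became 1 with only open reading frames measured on every array, of which the 9 genes hold SED1 and PIR3, and 5 in 1 fit of all arrays. For the mean of strains, the 20 calls became 4 with those open reading frames and 13 at an adjusted p below 0.01, the 13 calls of recovery against cold (WT and mean of strains) became 3, and the 4 calls of t120 against t90 became 2. The 20 calls of deletion strains against t0 became 39 with the flask number as block. Against WT, the 2 recovery calls became 5 with no block, 5 with the number block, 0 with every array measured, 1 on Ontario slides, 0 in 1 fit, 0 with the coating term, 1 with t120 alone and 1 at 0.01, and the 5 change calls became 1 with no block, 3 with the number block, 0 with every array measured, 2 on Ontario slides and 2 at 0.01. Against other deletions, the 2 recovery calls became 0 with every array measured, 5 and 1 with delHMO1 flask 2 or 4 turned, 0 with the coating term, 1 with t90 alone, 0 with t120 alone and 1 at 0.01, the 4 change calls became 1 with no block, 1 with the number block, 1 with every array measured and 2 at 0.01, and the 0 cold calls became 1 with the number block and 1 with flask 2 turned. The 2 F calls became 4 with no block, 4 with the number block, 0 with every array measured, 1 with robust moderation, 1 on Ontario slides, 1 without the 4 arrays, 5 with flask 2 turned, and 0 with the coating term, t90 alone, t120 alone or 0.01.

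With single flasks left out the counts ran from 7 to 9 for WT, 17 to 22 for the mean of strains, 10 to 14 for recovery against cold, 4 to 4 for t120 against t90 and 15 to 23 for deletions against t0. Against WT they ran from 0 to 0 at t15 and in the cold, 1 to 3 in recovery and 3 to 6 for the change. Against other deletions they ran from 0 to 0 in the cold, 1 to 4 in recovery and 2 to 6 for the change, and for the F test from 0 to 4. The flask numbers did not pair the samples, and 5 of 23 deletion flasks correlated best with the WT flask of their number; over all open reading frames the number block moved the count of calls by over 1.5 times in 66 comparisons, 54 of them upward.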
